A study of Homo sapiens with 6 samples.

Results

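The neurofilament and related intermediate filament genes NEFL, NEFM, NEFH, INA, VIM, NES, SYNM, LMNA, LMNB1 and LMNB2 were followed in HT1080 cells, an established human fibrosarcoma line of wild-type genotype per the labels. The 10 genes were chosen by name, as a family, with the difference of NEFL between the compounds already known, so the values of that contrast are given here as a description and not as a test. All 10 were found among the 60675 genes of the deposited table. The study asked how selective its KDAC6 inhibitors are, KDAC6 (HDAC6) being a lysine deacetylase that acts mostly in the cytoplasm on proteins such as tubulin. Cells at partial confluence were exposed to SW-113 or SW-138, both at 1 µM for 48 h, and ribosomal RNA was depleted from total RNA before sequencing. There were 3 libraries per compound. The labels used here give no vehicle group, so "higher" and "lower" always describe SW-138 libraries beside SW-113 libraries, and a lowering by one compound cannot be told apart from a raising by the other.

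Intermediate filaments are rope-like polymers of proteins that share a central coiled-coil rod. Neurofilaments, which set the calibre of axons, are built on the light subunit (NEFL) together with the medium (NEFM) and heavy (NEFH) subunits and α-internexin (INA). Vimentin (VIM) is the filament protein of mesenchymal cells, and nestin (NES) and synemin (SYNM) are large proteins that enter filaments of other subunits. The lamins form the meshwork under the inner nuclear membrane, with lamins A and C made from LMNA by alternative splicing and the B-type lamins made from LMNB1 and LMNB2.

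The members spread over 7 chromosomes of GRCh38 in GENCODE release 29. NEFL (ENSG00000277586, chromosome 8, 24950955 to 24957110, minus strand) and NEFM (ENSG00000104722, chromosome 8, 24913012 to 24919098, plus strand) lay 31.9 kb apart. VIM (ENSG00000026025, 17228259 to 17237593) and INA (ENSG00000148798, 103277163 to 103290351) both lay on chromosome 10, and NES (ENSG00000132688, 156668763 to 156677397) and LMNA (ENSG00000160789, 156082573 to 156140089) on chromosome 1. NEFH (ENSG00000100285, 29480230 to 29491390) lay on chromosome 22, SYNM (ENSG00000182253, 99098217 to 99135593) on 15, LMNB1 (ENSG00000113368, 126776623 to 126837020) on 5 and LMNB2 (ENSG00000176619, 2427638 to 2456996) on 19. Exon structure followed the branches of the family. The longest basic coding transcripts of NEFL, NEFH, NES and SYNM had 4 exons and those of NEFM and INA 3. VIM had 9, LMNB1 11, and LMNA and LMNB2 12.

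Promoter sequences of 7 members were found in the RefSeq promoter table (GRCh38.p14), with 10 starts in all. It held no entry for NEFL, NEFM or NEFH, so nothing below describes their start regions. The 250 bases before the start are printed for VIM, the member with the highest level, and for NES and INA, which had few or no counts, so that the start regions can be read beside those levels. Capitals mark matches on either strand to the GC box letters GGGCGG or to CAGCACC, the left part of the RE1 element bound by the neuronal gene repressor REST.

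VIM, chr10:17227991-17228240, plus strand: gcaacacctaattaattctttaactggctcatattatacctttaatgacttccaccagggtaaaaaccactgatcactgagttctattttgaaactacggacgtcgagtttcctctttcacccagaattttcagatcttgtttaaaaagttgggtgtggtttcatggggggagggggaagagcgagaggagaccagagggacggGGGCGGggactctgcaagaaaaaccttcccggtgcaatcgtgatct
NES, chr1:156677408-156677657, minus strand: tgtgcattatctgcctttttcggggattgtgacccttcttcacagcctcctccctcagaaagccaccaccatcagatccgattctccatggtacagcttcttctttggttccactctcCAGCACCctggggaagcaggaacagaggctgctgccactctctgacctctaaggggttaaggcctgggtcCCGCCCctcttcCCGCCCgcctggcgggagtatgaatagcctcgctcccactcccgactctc
INA, chr10:103276888-103277137, plus strand: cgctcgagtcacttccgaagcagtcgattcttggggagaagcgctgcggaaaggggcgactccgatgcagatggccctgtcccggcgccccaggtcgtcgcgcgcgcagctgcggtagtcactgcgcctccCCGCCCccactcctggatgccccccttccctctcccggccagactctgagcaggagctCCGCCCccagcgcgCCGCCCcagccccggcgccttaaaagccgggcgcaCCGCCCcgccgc

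These start regions differed in base composition. The VIM window held 46.0% G and C, that of NES 58.0% and that of INA 72.8%, where the median of 35116 promoters in the table was 58.0%. The GC box occurred once in VIM, with its first base 46 before the start, at 2 places in NES and at 4 in INA, and 42.64% of all promoter windows held at least 1. The left RE1 part occurred once in NES, 132 bases before the start, and in 6.16% of all windows. The right RE1 part (GGACAGC, in 4.76% of all windows), the TATA box letters TATAAA (10.72%) and the AP-1 letters TGANTCA (6.57%) were not found in these 3 windows. Among the other windows, 1 LMNA start held the left part of RE1 and another the right part. The motif searches overlapped nowhere in the printed windows, and a match describes letters and not a bound site.

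The libraries held 32771670 to 50871623 estimated read counts. Correlations of log2 CPM (counts per 1000000, scaled by TMM factors) ranged from 0.9877 to 0.9928 among libraries of the same compound and from 0.9858 to 0.9912 across compounds. On the first principal component SW-138 replicate 2 lay far from the rest, at 39.08 where the others lay from -24.05 to 5.88. Stable noncoding RNAs (small nuclear, small nucleolar, 7SK, 7SL and the like) took 11.1% to 12.6% of the counts with SW-113 and 7.33% to 9.99% with SW-138. No statement in the labels ties replicates to separate cultures, so intervals cover the spread between these libraries, which may be technical. Of the mesenchymal markers 8 of 10 had enough counts to test, with CD44, FN1, MMP14 and SPARC well expressed and THY1 (1 to 4 counts a library) and FAP (0 to 3) nearly absent. The listed markers of the muscle, leukocyte, endothelial, epithelial and glial lineages were low, and neuronal markers, some of them well expressed, are given further on. The epithelial list left out the simple-epithelial keratins KRT8 (219 CPM with SW-113 and 223 with SW-138) and KRT18 (233 and 239 CPM), which were well expressed. The summed CPM of 5 muscle markers reached at most 0.0480, that of 4 leukocyte markers 0.123, that of 4 endothelial markers 1.195, that of 7 epithelial markers 3.60 and that of 5 glial markers 1.66, and the epithelial markers KRT5 and KRT14 and the muscle markers MYOD1, MYOG, ACTA1 and CKM had 0 counts throughout.

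Vimentin and the lamins dominated the family, and among the neurofilament genes NEFL was the one with more than a few counts. Per kb of transcript (longest basic coding transcript), VIM was at 1935 ± 111 CPM per kb (SD, n = 6 libraries), LMNA at 140.3 ± 8.69, LMNB2 at 47.6 ± 4.07 and LMNB1 at 18.8 ± 1.86. SYNM followed at 1.94 ± 0.185 CPM per kb. NEFL was at 0.974 ± 0.103 CPM per kb in SW-113 libraries and 0.407 ± 0.0561 (SD, n = 3 each) in SW-138 libraries. Each of these genes stood apart from the next in every library, with ratios of mean levels of 13.8 (VIM to LMNA), 2.94 (LMNA to LMNB2), 2.54 (LMNB2 to LMNB1), 9.69 (LMNB1 to SYNM) and 2.81 (SYNM to NEFL). Below NEFL came NES at 0.0382 ± 0.0301, NEFH at 0.0280 ± 0.0169 and NEFM at 0.00301 ± 0.00501 CPM per kb (SD, n = 6). NES lay below NEFL in every library, by 18.1 times in the mean, while the libraries of NES and NEFH overlapped, as did those of NEFH and NEFM. INA had 0 counts in all 6 libraries, which allows at most 0.0605 to 0.0888 CPM depending on the library (3 counts, counting error only). Together the 10 genes took 0.391% to 0.434% of the counts with SW-113 and 0.457% to 0.470% with SW-138. These are shares of total counts without TMM factors, in which the stable noncoding RNAs count in full. With scaling by total count alone the median log2 fold change over all tested genes was 0.07, beside 0.01 with TMM.

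**Figure D1:**
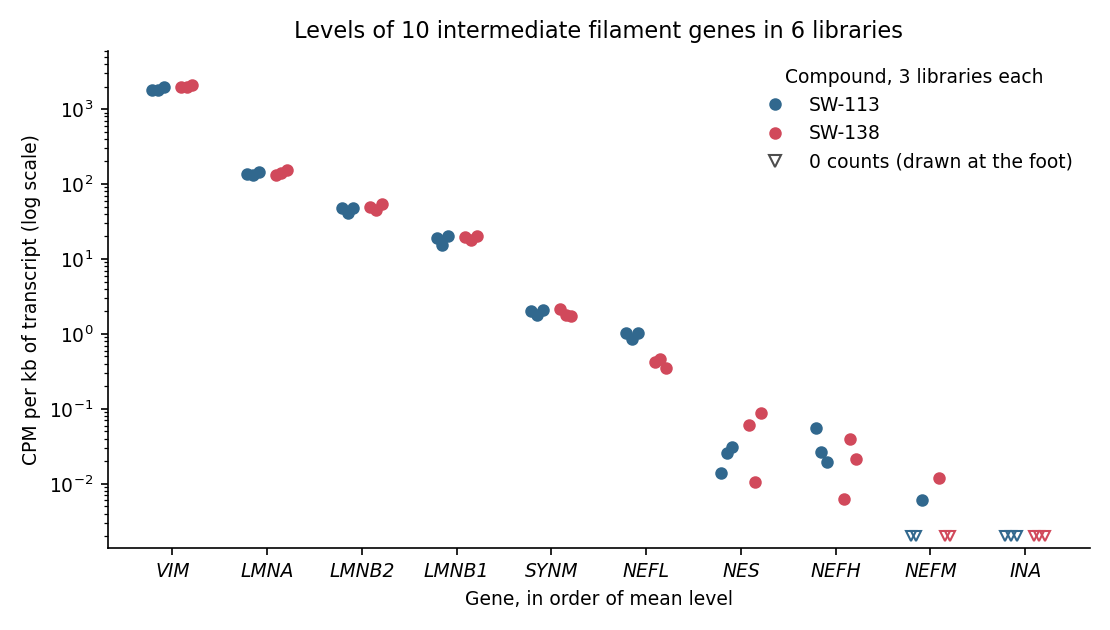
Levels of the 10 genes in each of the 6 libraries, as CPM per kb of transcript on a log axis, with SW-113 and SW-138 libraries as separate points and libraries with 0 counts drawn as open triangles at the foot. VIM lies near 1935, NEFL splits into 0.974 (SW-113 mean) and 0.407 (SW-138 mean), and INA has 0 counts throughout.

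NEFL, the light subunit, was lower in SW-138. Its counts were 162, 173 and 172 in SW-113 replicates 1, 2 and 3 and 71, 63 and 52 in SW-138 replicates 1, 2 and 3. Scaled to library size these were 4.21, 3.49 and 4.23 CPM against 1.70, 1.86 and 1.41 CPM. The compounds did not overlap, and even the lowest of the SW-113 libraries (replicate 2) was well above the highest of the SW-138 libraries (also replicate 2). The SW-113 mean was 3.98 ± 0.422 CPM (SD, n = 3) and the SW-138 mean 1.66 ± 0.229 CPM, a 2.39-fold lower level (95% interval 1.83 to 3.13), or a log2 fold change of -1.26 ± 0.17 (SE). In the fit over 16905 tested genes only 32 had a lower log2 fold change, so NEFL took rank 33 from the lowest. This was a weakly expressed gene, at percentile 30.03 of mean CPM among tested genes. Summed over 3 libraries its counts were 507 (95% Poisson interval 464 to 553, counting error only) and 186 (160 to 215). Without SW-138 replicate 2, the library that stood apart, the log2 fold change was -1.34.

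The partners of NEFL in neurofilaments gave too few counts for a comparison. NEFM, the medium subunit, had 0, 0 and 1 counts with SW-113 and 2, 0 and 0 with SW-138. For NEFH, the heavy subunit, the counts were 8, 5 and 3 with SW-113 and 1, 5 and 3 with SW-138. INA was at 0 as given above, and the counts of NEFM and NEFH overlapped between compounds. NEFL thus held 95.3% to 97.7% of the counts of these 4 genes with SW-113 and 92.6% to 95.9% with SW-138. Since the partners lay below the filter, no difference between them and NEFL in their response was tested.

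Of the 10 members 6 passed the filter on low counts and 1, NEFL, lay past the threshold of 0.05 on adjusted p in edgeR's quasi-likelihood fit, beside 6.82% of all tested genes. By direction, 4.06% of all tested genes were lower and 2.76% higher in SW-138, so that 40.4% of the calls were higher, or 71.0% when libraries were scaled by total count alone. Leaving out 1 library at a time moved the number of calls from 1153 to between 303, with SW-113 replicate 3 removed, and 1616, with SW-138 replicate 2 removed. Because the contrast was known when the family was put together, nothing is read from that count. The libraries of the compounds did not overlap for 2 of the 6, NEFL and VIM, and for 27.9% of all tested genes.

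**Figure D2:**
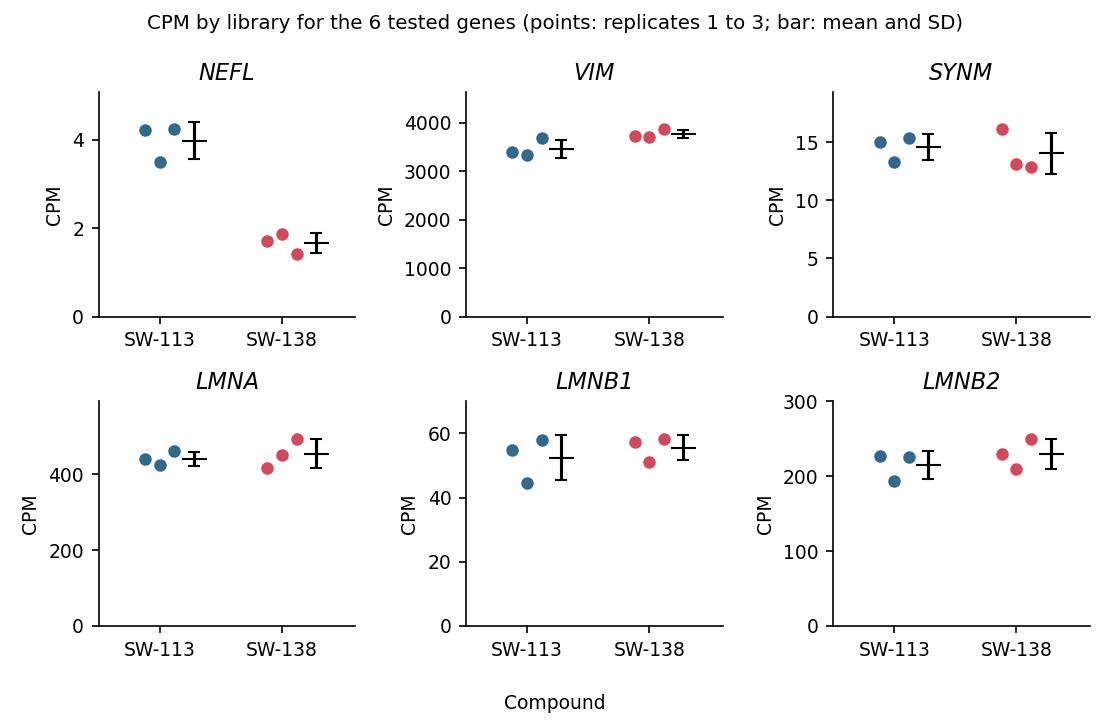
CPM in each library (points, replicates 1 to 3 from left to right) with the mean and SD of each compound (bars), for the 6 genes that passed the filter, each on its own linear axis from 0. NEFL has means of 3.98 and 1.66 CPM and no overlap between compounds, while VIM has means of 3465 and 3763 CPM.

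VIM, the filament gene of mesenchymal cells, had similar levels under both compounds. The libraries were at 3391, 3329 and 3675 CPM with SW-113 and at 3725, 3704 and 3860.5 CPM with SW-138, replicates in order. All SW-138 libraries lay above all SW-113 libraries, although SW-113 replicate 3 came within a small distance of them. Means were 3465 ± 185 CPM (SD, n = 3) and 3763 ± 85.1 CPM, a log2 fold change of 0.12 ± 0.05 (SE) or 1.09-fold (95% interval 1.01 to 1.17), and it did not pass the threshold over all genes. With scaling by total count alone, where the stable noncoding RNAs count in full, its log2 fold change was 0.18, also not past the threshold. With mitochondrial and stable noncoding RNA genes left out of the fit, the log2 fold change of VIM was 0.12, again not past the threshold. The part of the shift in RNA makeup in the VIM difference was not tested. VIM alone took 0.325% to 0.388% of all counts in a library.

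SYNM, which enters vimentin and desmin filaments, overlapped between compounds. It was at 15.07, 13.3 and 15.4 CPM with SW-113 and at 16.1, 13.1 and 12.9 CPM with SW-138. SW-138 replicate 1 was the highest of the 6 libraries and replicates 2 and 3 of that compound were the lowest. SYNM had a log2 fold change of -0.05 ± 0.10 (SE; 95% interval -0.28 to 0.17). NES, a filament protein of progenitor cells, was detected by few reads, with 3, 7 and 7 counts in SW-113 replicates and 14, 2 and 18 in SW-138 replicates. SW-138 replicates 1 and 3 were the highest and replicate 2 the lowest, so the groups overlapped. Summed over libraries the counts were 17 (95% Poisson interval 9.90 to 27.2) and 34 (23.5 to 47.5). When genes with at least 1 count were kept, the log2 fold changes of NES, NEFH and NEFM were 1.16 ± 0.70 (SE), -0.61 ± 0.70 and 0.90 ± 0.81, with intervals that included 0 and no call for any of these 3.

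The lamin genes overlapped between compounds. LMNA, the source of lamins A and C, was at 439.5, 423 and 461 CPM with SW-113 and at 417, 451 and 493 CPM with SW-138. The lowest and the highest library were both SW-138 libraries (replicates 1 and 3), and the log2 fold change was 0.04 ± 0.06 (SE; 95% interval -0.10 to 0.18). LMNB1, the B-type lamin that is lost in senescent cells, was at 54.7, 44.5 and 58.01 CPM with SW-113 and at 57.3, 51.2 and 58.3 CPM with SW-138. Replicate 2 was the lowest library in both compounds, and the log2 fold change was 0.09 ± 0.09 (SE; -0.12 to 0.30). LMNB2, the other B-type lamin, was at 227, 194 and 226 CPM with SW-113 and at 229, 209.9 and 250.06 CPM with SW-138. Here too replicate 2 was the lowest of each compound, with a log2 fold change of 0.09 ± 0.08 (SE; -0.08 to 0.26). In these libraries the intervals of the 3 lamin genes, within -0.12 to 0.30, did not include the NEFL value of -1.26. This is a description, since the NEFL value was known beforehand and the intervals cover only the spread between these libraries.

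The balance among the lamins was also close between compounds. Per kb, LMNA exceeded LMNB1 by 7.66 ± 0.797 times in SW-113 libraries and 7.38 ± 0.715 times (SD, n = 3 each) in SW-138 libraries, and it exceeded LMNB2 by 3.01 ± 0.180 and 2.90 ± 0.238 times. LMNA made up 68.3% ± 1.49 and 67.5% ± 1.89 of lamin transcript per kb. Gene counts do not separate the lamin A and lamin C transcripts. The ranges of all these ratios overlapped.

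Other filament genes were examined through a list of 60 keratins and remaining filament genes, of which 13 were tested. Of these, 1 was higher, 1 lower and 11 not past the threshold, beside 6.82% of all tested genes called in either direction. DESeq2 and limma-voom each called 1 of the 13, beside 1368 and 1129 of all 16905 tested genes. The median log2 fold change of the 13 was 0.03, beside 0.01 over all tested genes, and 30 of the 60 had 0 counts in all libraries. The libraries of the compounds did not overlap for 3 of the 13, beside 27.9% of all tested genes. KRT80 was higher, at 40.08 ± 0.860 CPM in SW-138 libraries against 33.06 ± 0.768 CPM (SD, n = 3 each) in SW-113 libraries (log2 fold change 0.28 ± 0.05, SE; edgeR, Benjamini-Hochberg adjusted p = 0.0126). KRT10, a keratin of differentiating epidermis, was lower, at 11.4 ± 0.657 against 13.8 ± 0.414 CPM (-0.29 ± 0.08, adjusted p = 0.0466 in edgeR). KRT10 did not pass in DESeq2 or limma-voom, with other scalings, with length and GC trends removed, or in 5 of the 6 fits that left out a library, all but that without SW-138 replicate 2. The partner keratins of simple epithelia, KRT8 and KRT18, were at 0.03 ± 0.05 and 0.04 ± 0.06 and did not pass, and reads of both may be shared with their many pseudogenes. The call of KRT80 was lost without SW-113 replicate 1 or 3.

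**Figure D3:**
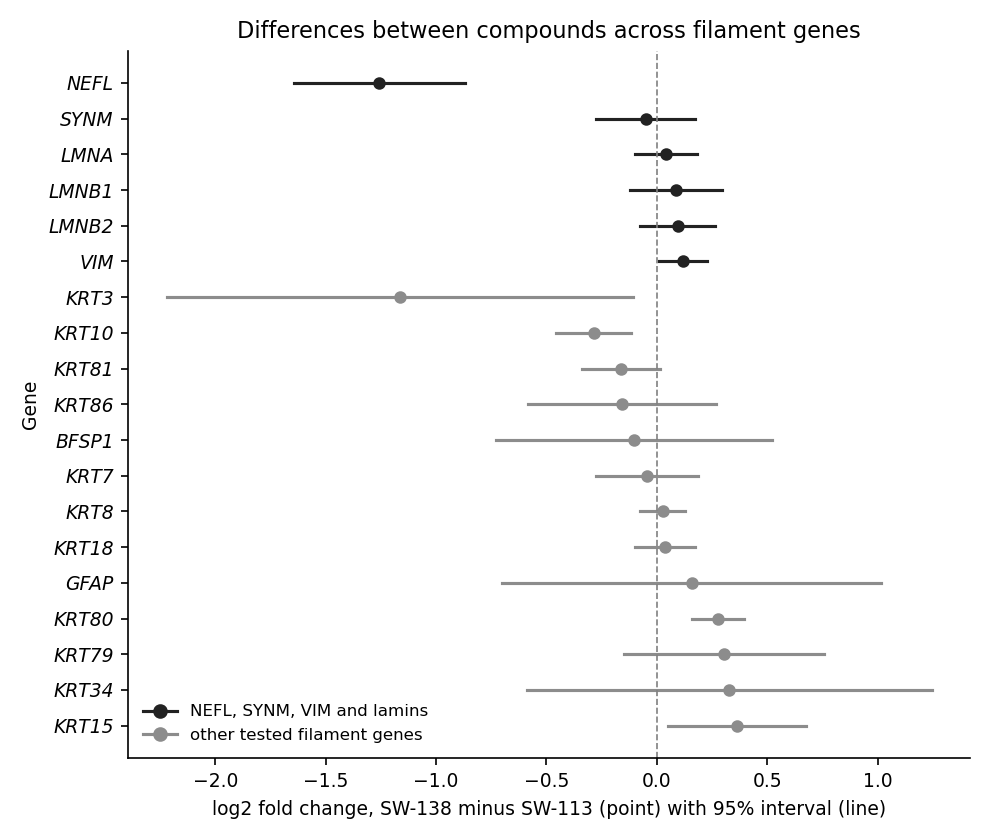
Log2 fold change of SW-138 minus SW-113 (points) with 95% intervals (lines) for the 6 tested members in black and 13 other tested filament genes in grey. NEFL, at -1.26, lies apart from the other members, whose points lie between -0.05 and 0.12, and the wide intervals belong to genes with few counts such as KRT3.

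None of the tested genes on 3 lists of factors that bind, fold or process these proteins passed the threshold, beside 6.82% of all tested genes. DESeq2 called 1368 and limma-voom 1129 of all 16905 tested genes. The 6.82% is for adjusted p. The share of all tested genes at unadjusted p under 0.05 is not given here, so nothing is read from the unadjusted counts below. Among the filament crosslinkers edgeR called 0 of 5 tested (unadjusted p under 0.05 for 0, and 0 calls by DESeq2 and by limma-voom). The 2 most abundant were plectin (PLEC, -0.09 ± 0.09, SE) and dystonin (DST, -0.0010 ± 0.09). Chaperones and turnover factors of filaments had 0 of 5 called by edgeR (unadjusted p under 0.05 for 2, and 0 calls by DESeq2 and by limma-voom). Their median log2 fold change was -0.12, beside 0.01 over all tested genes. The libraries of the compounds did not overlap for 3 of the 5, beside 27.9% of all tested genes. Summed over the list, the level was 389 to 407 CPM in SW-113 libraries and 363 to 370 CPM in SW-138 libraries. DNAJB6, a chaperone that keeps filaments from aggregating, was at -0.12 ± 0.05 and BAG3, a co-chaperone of selective autophagy, at -0.14 ± 0.05. Enzymes of lamin maturation also had 0 of 5 called by edgeR (unadjusted p under 0.05 for 1, and 0 calls by either other tool). ICMT, which methylates the lamin tail, was at 0.04 ± 0.08 and FNTA, a subunit of the farnesyltransferase, at -0.10 ± 0.06.

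Of 16 genes of the nuclear lamina and of the LINC bridges between nucleus and cytoskeleton, 1 was higher and 0 lower. The other 15 did not pass the threshold, where 6.82% of all tested genes were called in either direction. SYNE1, which encodes the giant bridge protein nesprin-1, was at 99.7 ± 6.78 CPM in SW-138 libraries and 78.4 ± 4.96 CPM (SD, n = 3 each) in SW-113 libraries (0.35 ± 0.06, SE; edgeR, Benjamini-Hochberg adjusted p = 0.013). This call was lost without SW-113 replicate 1 or 3. The median of this list was 0.13, beside 0.01 over all tested genes. DESeq2 and limma-voom each called 1 of the 16, beside 1368 and 1129 of all 16905 tested genes. The libraries of the compounds did not overlap for 6 of the 16, beside 27.9% of all tested genes. Summed over the list, the level was 1263 to 1332 CPM in SW-113 libraries and 1381 to 1420.02 CPM in SW-138 libraries.

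REST represses many neuronal genes through corepressors that include deacetylases. The REST gene itself was at 109.8 ± 4.21 CPM in SW-113 libraries and 117 ± 5.57 CPM (SD, n = 3 each) in SW-138 libraries and did not pass (0.10 ± 0.05, SE). Of 6 genes of REST and its corepressors 0 were higher and 1 was lower, beside 6.82% of all tested genes called in either direction. The 1 was the histone methyltransferase gene EHMT2, at 52.05 ± 1.25 against 62.2 ± 1.97 CPM (-0.26 ± 0.05, SE; adjusted p = 0.0156 in edgeR). DESeq2 and limma-voom each called 1 of the 6, beside 1368 and 1129 of all 16905 tested genes. The call of EHMT2 was lost when either SW-113 replicate 2 or 3, or else SW-138 replicate 1, was left out. Of 20 neuronal markers, among which neurofilament genes were not counted, 11 were tested. Of these, 2 were higher, 0 lower and 9 not past the threshold, beside 6.82% of all tested genes called in either direction, and the median log2 fold change was 0.46. DESeq2 called 4 of the 11 and limma-voom 2, beside the same 1368 and 1129 of all 16905 tested genes. The 2 were the adhesion molecule gene NCAM1 (0.49 ± 0.12, adjusted p = 0.0377 in edgeR) and the stathmin gene STMN3 (0.46 ± 0.09, adjusted p = 0.0143 in edgeR). NCAM1 did not pass without any 1 of the 3 SW-113 libraries or without SW-138 replicate 1 or 3, nor with robust estimation in edgeR, and STMN3 did not pass without any 1 of the SW-113 libraries or SW-138 replicate 1. The libraries of the compounds did not overlap for 7 of the 11, beside 27.9% of all tested genes. Besides NCAM1 and STMN3, L1CAM (1.08 ± 0.30), MAP2 (0.62 ± 0.17) and SNAP25 (0.29 ± 0.09) were on the higher side. On the lower side were the neuronal tubulin gene TUBB3 (-0.27 ± 0.08) and ENO2 (-0.14 ± 0.05). L1CAM, MAP2, SNAP25, TUBB3 and ENO2 did not pass. The summed level of the 20 markers was 222 to 247.5 CPM with SW-113 and 247.4 to 278 CPM with SW-138, while STMN2 had 0 counts and DCX and UCHL1 at most 1 count in a library. The part of neuronal marker levels in the NEFL difference was not tested. Of the mesenchymal markers TWIST1 was lower (-0.42 ± 0.08, adjusted p = 0.0126 in edgeR) and 7 did not pass, beside the same 6.82% of all tested genes. The TWIST1 call was lost without SW-113 replicate 3. DESeq2 called 2 of these 8 markers and limma-voom 1, beside 1368 and 1129 of all 16905 tested genes.

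On chromosome 8 the nearest tested genes on either side of NEFL were DOCK5 and STC1, both with positive log2 fold changes. DOCK5, a guanine exchange factor gene 228 kb to one side, was at 0.12 ± 0.05 (SE) and did not pass. STC1, which encodes the hormone stanniocalcin, lay 1096 kb to the other side of NEFL and was higher, at 517 ± 87.4 CPM in SW-138 libraries and 369.99 ± 33.1 CPM (SD, n = 3 each) in SW-113 libraries (0.48 ± 0.11; adjusted p = 0.0287 in edgeR). The call of STC1 was lost without any 1 of the SW-113 libraries, without SW-138 replicate 1 or 3, and with robust estimation in edgeR. Annotated genes that overlap members mostly had lower CPM than those members. The antisense genes over NEFL and NEFH had 0 counts, and that over NEFM, itself nearly without counts, had 0 to 4. VIM-AS1 was at 3.69 and 3.38 CPM, far below VIM itself, and TIMM13, whose span overlaps LMNB2 on the same strand, was at 55.4 and 48.2 CPM (-0.20 ± 0.08, not past the threshold). The strand setting of the counting was not given in the sources used here, so reads of such pairs may not be separated.

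The genes whose profile over the 6 libraries was most like that of NEFL were found among 13601 tested genes with a symbol and a mean of at least 1 CPM. By Pearson correlation of log2 CPM they were LSM2 (0.9978), IMP3 (0.9941), SNRNP27 (0.994), SAMD9L (0.9929) and RNF168 (0.9922). Their log2 fold changes were all negative and smaller in size than that of NEFL, at -0.31, -0.41, -0.23, -0.35 and -0.14. The 6 points fall into 2 groups of NEFL values and all genes share the depth and scaling of a library, so these correlations are a description only.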

How the data were processed

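Total RNA of HT1080 cells was depleted of ribosomal RNA and sequenced, per the labels' protocols. The authors deposited expected counts per gene, estimates that need not be whole (10.56% to 11.56% of the values were not). Build GRCh38 and the tools RSEM 1.3.3, Bowtie2 2.5.4, Trimmomatic 0.39 and DESeq2 1.42.0 come from the submitters' processing notes, which state no role or order. Strand setting and annotation version: not given in the sources used here. Genes with near-identical copies are uncertain, since their reads may be divided between copies.

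Expected counts were rounded, filtered with filterByExpr (16905 of 60675 genes kept) and scaled by TMM. The quasi-likelihood test of edgeR 4.0.16 compared the compounds, and p-values were adjusted by Benjamini-Hochberg over every tested gene, with a threshold of 0.05. Limma-voom (limma 3.58.1, R 4.3.3) supplied standard errors, and 95% intervals were centred on edgeR's log2 fold changes. Lengths and positions came from GENCODE release 29, which held 57055 of the genes. The code was tested on simulated data. Library totals are given with the results, and intervals from counts cover counting error only. Counts of every pair of replicates differed by more than sampling noise. Members and lists were chosen with earlier results of these data known. Named genes were the members, the 5 most like NEFL, genes overlapping a member, and from each list up to 4 called genes or, with none called, the 2 most abundant. KRT8, KRT18, TUBB3, L1CAM, MAP2, SNAP25, ENO2, DOCK5, STC1 and the marker genes given as examples were named after their values were seen. Alternatives were other scalings, filters, tools and gene subsets, removal of length and GC trends, a block on replicate number and leaving out each library. Figures were drawn with matplotlib.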

Additional observations from a re-analysis of the deposited data

How the results depend on the processing

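The NEFL difference kept its direction and stayed past the threshold in all 18 alternatives in which it was tested, with log2 fold changes from -1.35 to -1.15. Keeping genes with a mean of at least 5 CPM removed NEFL from the test, which left 0 members past the threshold under that filter. VIM and LMNB2 stayed higher in all 19 alternatives (0.09 to 0.18 and 0.02 to 0.16), while SYNM (-0.16 to 0.01), LMNA (-0.02 to 0.10) and LMNB1 (-0.02 to 0.17) took both signs, and none of these 5 passed in any of the 19. The order of the 10 levels per kb was the same with median transcript lengths and with scaling by total count. Over all genes, 1153 were called as reported (466 higher, 687 lower), 1300 (923 higher, 377 lower) when only total counts set the scale, 2060 with genes kept at 1 count in 1 library, 2363 with the replicate block and 2232 with the replicate block and length and GC trends removed. Leaving out 1 library gave 303 to 1616: 530, 458 and 303 without SW-113 replicates 1, 2 and 3, and 509, 1616 and 605 without SW-138 replicates 1, 2 and 3. Whether same-numbered libraries pair was not settled. Their correlations of deviations were 0.05, 0.21 and 0.05, while those across different numbers ran from -0.14 to 0.09. Not every library correlated best with its own number. Under the block NEFL was at -1.26 and still past the threshold. Low counts kept NEFM, NEFH, INA and NES out of the main fit, so differences between compounds were not tested there. The SW-138 libraries also spread widely for NES, at 14, 2 and 18 counts.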

Other observations

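The filament gene with the second highest level was a hair keratin. KRT81, which was outside the members and was singled out after its values were seen, was at 557 ± 58.7 CPM per kb (SD, n = 6 libraries), rank 2 of 70 filament genes behind VIM at 1935, ahead of LMNA at 140.3, KRT18 at 139 ± 7.80 and KRT8 at 90.8 ± 2.38. SW-113 libraries had 1135 ± 119 CPM and SW-138 libraries 1015 ± 83.6 CPM (SD, n = 3 each). The compounds did not overlap, which was also so for 27.9% of all tested genes. The log2 fold change of KRT81 was -0.16 ± 0.08 (SE) and did not pass (edgeR, Benjamini-Hochberg adjusted p = 0.291). Its close relative KRT86 was at 2.19 ± 0.265 CPM in SW-113 libraries and 1.98 ± 0.389 CPM in SW-138 libraries, and reads of the pair may be divided between them by the counting.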
